A study of Mus musculus with 35 samples.

Results

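The genes described here are 10 genes of the epidermis listed together as adhesion genes: Perp, Dsp, Jup, Pkp1, Dsc3, Dsg3, Col17a1, Itga6, Itgb4 and Trim29. They were chosen by symbol from a list made with earlier results of these data known. All 10 were found among the 22609 gene symbols counted in each of the 35 libraries. Trim29, a cytoplasmic TRIM-family protein, is called an adhesion gene below only because the list holds it. The study sorted cells from mouse hind paw skin after paclitaxel (PTX), a microtubule-stabilizing chemotherapy drug, and sequenced their messenger RNA. All mice were of the C57 strain and 8 to 16 weeks old. Keratinocytes came from K5-cre-ER/tdTom mice, in which Cre under a keratin 5 promoter marks cells with a red fluorescent protein, as 4 vehicle female, 3 vehicle male and 4 PTX male libraries. Fibroblasts came from Col1a2-cre-ER/tdTom mice and immune cells, sorted by CD45, from wild-type mice, each as 4 vehicle female, 4 vehicle male and 4 PTX male libraries. PTX males received 2 intraperitoneal injections of 2 mg/kg and were sampled 6 days after the last, and no females received PTX. The sources used here do not give when Cre was induced, nor whether every library came from its own mouse. Each p-value below is thus a statement about variation among these libraries alone, some of which may be technical.

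Desmosomes join neighbouring keratinocytes. Their cadherins (desmogleins and desmocollins) bind across the gap between cells, plakoglobin and plakophilins sit beneath them, and desmoplakin ties the plaque to keratin filaments. Hemidesmosomes anchor basal keratinocytes to the basement membrane through integrin α6β4 and collagen XVII, and link to the same keratins, of which Krt5 is the main type II keratin of the basal layer. Krt5 served as a yardstick here, since a library that held a smaller share of keratinocyte RNA would lose Krt5 reads along with those of genes read only in keratinocytes. Jup, Itga6 and Itgb4 were also read in other sorted cells, so the yardstick covers them less well.

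Of the 10 genes, 3 had a start region in the RefSeq promoter table used here (GRCm38.p6), and these are shown with that of Krt5, the yardstick. Jup, Col17a1 and Krt5 were called lower after PTX, and Dsp was lower without passing the test. Dsp was not tested against the others, so no difference between them is shown. Each run covers 250 bases before to 50 bases after the annotated start, 5′ to 3′ on the gene's strand. Capitals mark the GC box GGGCGG on either strand, the TATA box TATAAA, and a p53-family half-site of 10 bases. The half-site was RRRCWWGYYY, where R is A or G, W is A or T and Y is C or T. Full p53-family elements were not searched for.
Dsp (chr13:38151044-38151343, plus strand): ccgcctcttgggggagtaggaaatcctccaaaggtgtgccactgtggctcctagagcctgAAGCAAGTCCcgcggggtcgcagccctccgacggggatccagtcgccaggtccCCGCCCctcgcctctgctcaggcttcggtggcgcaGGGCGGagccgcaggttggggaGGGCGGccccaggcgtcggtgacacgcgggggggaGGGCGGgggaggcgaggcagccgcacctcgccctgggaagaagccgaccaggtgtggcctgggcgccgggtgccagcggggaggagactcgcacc
Jup (chr11:100397741-100398040, minus strand): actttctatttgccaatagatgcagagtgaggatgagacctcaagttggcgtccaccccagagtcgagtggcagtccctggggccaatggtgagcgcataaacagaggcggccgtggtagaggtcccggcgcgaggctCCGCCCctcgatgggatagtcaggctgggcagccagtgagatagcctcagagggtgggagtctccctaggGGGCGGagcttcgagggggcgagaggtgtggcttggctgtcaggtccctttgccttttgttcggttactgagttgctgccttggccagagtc
Col17a1 (chr19:47691993-47692292, minus strand): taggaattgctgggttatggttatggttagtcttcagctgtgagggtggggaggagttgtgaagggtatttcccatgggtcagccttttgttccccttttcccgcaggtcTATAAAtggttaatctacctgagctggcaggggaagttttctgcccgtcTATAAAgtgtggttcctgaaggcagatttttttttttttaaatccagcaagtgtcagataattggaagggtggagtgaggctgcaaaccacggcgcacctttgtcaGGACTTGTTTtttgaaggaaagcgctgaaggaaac
Krt5 (chr15:101712856-101713155, minus strand): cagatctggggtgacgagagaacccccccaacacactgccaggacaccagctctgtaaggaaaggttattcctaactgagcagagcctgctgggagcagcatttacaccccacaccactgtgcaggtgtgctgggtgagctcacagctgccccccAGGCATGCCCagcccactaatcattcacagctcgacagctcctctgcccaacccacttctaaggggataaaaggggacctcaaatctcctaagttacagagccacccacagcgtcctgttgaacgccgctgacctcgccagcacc
Both strands were searched in each window, and positions below count from 1 at its 5′ end. The Dsp window held 4 GC boxes, starting at 114, 149, 171 and 206, and a p53-family half-site at 61 to 70. Jup had 2 GC boxes (139 to 144 and 209 to 214) and 2 CCAAT boxes, which are not in capitals, at 13 to 17 and 84 to 88. Col17a1 had no GC box but 2 TATA boxes (111 to 116 and 160 to 165). It also held a CCAAT box on the other strand at 220 to 224 and a p53-family half-site at 266 to 275. The Krt5 window held a p53-family half-site at 156 to 165, and none of the 4 windows held the AP-1 site TGANTCA. Among 32851 promoter windows of the same length, 35.7% held a GC box, 13.6% TATAAA and 37.4% CCAAT. The p53-family half-site was in 8.36% and the AP-1 site in 7.81%. No motif was shared by Dsp, Jup and Col17a1, and these matches describe letters only.

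Keratinocyte libraries held 6518070 to 12055718 counts in genes, apart from vehicle female 2 with 988712. Vehicle male 2 stood apart with 4511 genes above 10 counts, against 6508 to 10211 in the other 10 keratinocyte libraries. Levels are given as CPM, the reads of a gene relative to the size of its library, scaled with edgeR's TMM factors. Basal keratinocyte markers (Krt5, Krt14, Krt15 and Trp63) summed to 14400 to 26570 CPM in the vehicle keratinocyte libraries and 3214 to 11400 CPM in the PTX ones. Summed fibroblast markers (7 genes) reached 110 to 1265 CPM under vehicle and 14280 to 20100 CPM under PTX. In all 4 PTX libraries they therefore exceeded the basal markers of the same library, against the keratinocyte label. Pan-immune markers (8 genes) summed to 31.8 to 246 CPM under vehicle and 1536 to 3854 CPM under PTX, and endothelial markers (5 genes) to 0.325 to 380 CPM and 1261 to 1796 CPM. Pericyte and smooth muscle markers (4 genes) summed to 4.153 to 1046 CPM under vehicle and 1519 to 3375 CPM under PTX. Skeletal muscle markers (4 genes) were at 0.1805 to 24.55 CPM under vehicle. In PTX males 1 to 4 they were at 25.15, 1435, 1.2 and 1681 CPM. Against vehicle males, edgeR's quasi-likelihood test called 5 of 7 fibroblast, 4 of 8 pan-immune and 3 of 5 endothelial markers higher, and 3 of 4 basal and 3 of 4 tested suprabasal markers lower. Of all 10939 genes tested, 126 were called higher and 33 (0.302%) lower. Markers near 0 under vehicle, such as Dpt, Kdr and Tie1, passed the filter on low counts through the PTX libraries. Their calls thus support nothing beyond the levels given. Loricrin (Lor) was at 0 in every keratinocyte library and involucrin (Ivl) in every vehicle one. These shifts coincide with the treatment in every library, so the part they play in the results below was not tested beyond the Krt5 yardstick. In sorted bulk samples, fewer keratinocytes and less RNA per keratinocyte cannot be told apart.

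**Figure D1:**
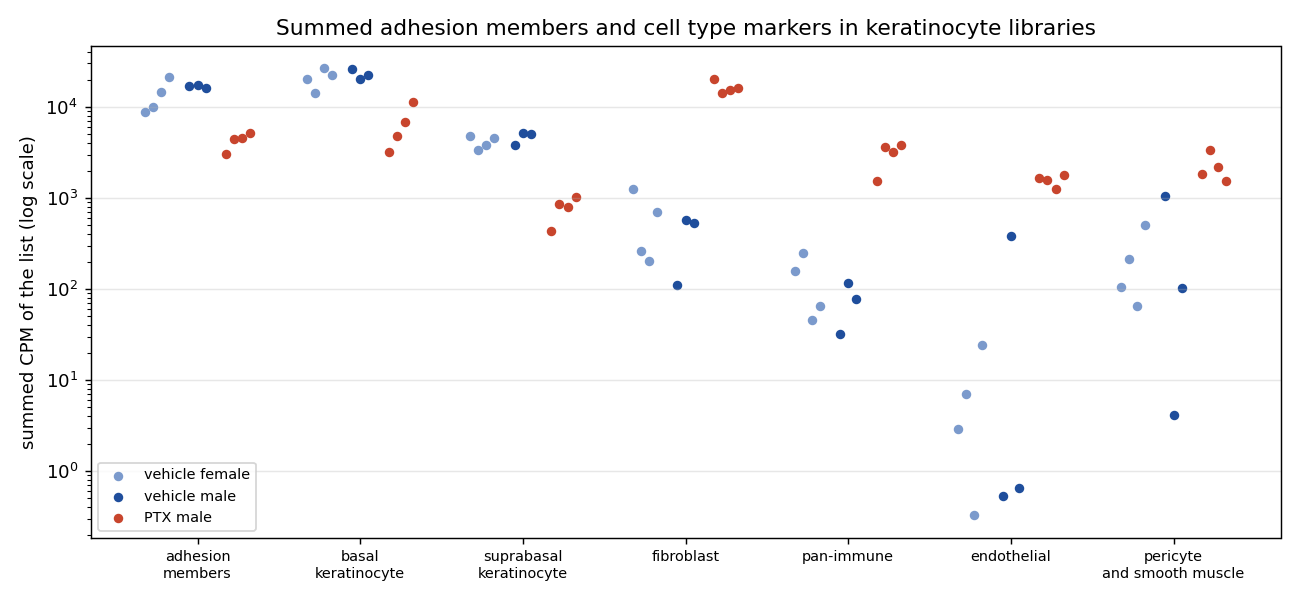
Summed CPM (log axis) of the 10 adhesion genes and of 6 marker lists in each keratinocyte library, 1 point per library, for vehicle females, vehicle males and PTX males. The adhesion genes, basal and suprabasal markers lie lower in all 4 PTX libraries than in any vehicle library. Fibroblast, pan-immune, endothelial, and pericyte and smooth muscle markers lie higher.

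All 10 adhesion genes had lower mean levels in PTX than in vehicle male keratinocytes, and 4 passed the test: Perp, Jup, Col17a1 and Trim29. Among all 10939 genes tested, 0.302% were called lower (33 genes) and 126 were called higher. At an unadjusted p under 0.05 there were 9 of the 10 genes, all but Itga6, and 1619 of all genes in either direction. The median log2 difference was -1.86 over the 10 genes and 0.07 over all genes. All 10 had passed the filter on low counts, so none is left out of these counts. Krt5 fell too, by 1.49 ± 0.32 (log2, SE), or 2.81-fold, with an adjusted p of 0.02 (edgeR). Of the other basal markers, Krt14 differed by -1.93 and Krt15 by -2.45 (edgeR adjusted p = 0.00314 and 0.000664), both beyond Krt5. Trp63, which did not pass, differed by -1.25. The suprabasal markers Krt1 (-2.04), Krt10 (-3.55) and Krtdap (-2.71) were called, and Sbsn (-1.38) was not. Krt5 measured 4748 to 8093 CPM in the 3 vehicle males and 1193, 1884, 2463 and 4196 CPM in PTX males 1 to 4. These male groups did not overlap, but vehicle female 2, at 3809 CPM, lay below PTX male 4.

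Perp, a membrane protein that desmosomes need for stable assembly, showed the clearest difference. Its level was 4395, 5605 and 5156 CPM in vehicle males 1 to 3 and 3739, 2620, 4565 and 4216 CPM in vehicle females 1 to 4. In PTX males 1 to 4 it was 847, 836, 1275 and 667 CPM. Every PTX library was below every vehicle library of either sex, with no value in between the ranges of 667 to 1275 and 2620 to 5605 CPM. The fall from vehicle males was 2.48 ± 0.25 on the log2 scale, or 5.58-fold, with an adjusted p of 1.27e-05 in edgeR's test. Leaving out any 1 keratinocyte library kept this call, and voom quality weights lost it.

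Desmoplakin (Dsp), which links the plaque to keratin, did not pass the test once p was adjusted over all genes. It measured 1389, 818 and 1395 CPM in vehicle males and 488, 882, 398 and 693 CPM in PTX males, and vehicle female 1 was lower than any PTX library, at 390.1 CPM. The groups overlapped, and the log2 difference was -0.97 ± 0.45 with an unadjusted p of 0.0447 and an adjusted p of 0.322 (edgeR). This was the smallest difference among the 10 genes.

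Plakoglobin (Jup), shared by desmosomes and adherens junctions, measured 2062, 3157 and 2194 CPM in vehicle males. PTX males 1 to 4 had 406, 774, 480 and 1155 CPM, all below every vehicle male, while the highest of them lay level with vehicle female 1 (1154 CPM). Jup fell by 1.81 ± 0.40 on the log2 scale, 3.51-fold, with an adjusted p of 0.0228 (edgeR). Plakophilin 1 (Pkp1), which clusters desmosomal cadherins in the plaque, measured 904, 463 and 858 CPM in vehicle males and 281, 272, 294 and 62.6 CPM in PTX males. These 2 groups did not overlap, although vehicle female 1, at 135 CPM, lay within the PTX range. The Pkp1 difference of -1.71 ± 0.63 did not pass the test (edgeR adjusted p = 0.224).

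The desmosomal cadherins were measured as desmocollin 3 (Dsc3) and desmoglein 3 (Dsg3), the forms typical of the basal epidermis and, for Dsg3, the antigen of pemphigus vulgaris. Dsc3 was at 1166, 304 and 1309 CPM in vehicle males and at 157, 138, 327 and 232 CPM in PTX males. Vehicle male 2 lay inside the PTX range, and the log2 difference of -2.12 ± 0.56 had an adjusted p of 0.0774 (edgeR). Dsg3 was at 328, 1158 and 235 CPM in vehicle males, and at 39.4, 43.4, 148 and 8.40 CPM in PTX males. No PTX library reached a vehicle library of either sex for Dsg3, yet the spread within both groups was wide. Its log2 difference, -3.26 ± 0.84, was the largest of the 10 and had an adjusted p of 0.0649 (edgeR). PTX male 4 rested on 59 Dsg3 reads, against 336 to 1847 in the other 3 PTX libraries.

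Among the hemidesmosome genes, collagen XVII (Col17a1), the transmembrane collagen also known as BP180, passed the test. Vehicle males had 4220, 2460 and 2888 CPM and PTX males 245, 969, 1040 and 1126 CPM, and no PTX library reached any vehicle library, the lowest of which was vehicle female 2 at 1631 CPM. Col17a1 fell by 1.92 ± 0.43 on the log2 scale, 3.78-fold, with an adjusted p of 0.0248 (edgeR). The integrin chains did not pass. Integrin β4 (Itgb4), which carries the long tail that binds plectin, measured 1204, 947 and 791 CPM in vehicle males and 214, 307, 350 and 589 CPM in PTX males. Those groups did not overlap, but 2 vehicle females (356 and 342 CPM) lay within the PTX range. The log2 difference was -1.42 ± 0.55 (edgeR adjusted p = 0.233).

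Its partner integrin α6 (Itga6) was at 428, 0.722 and 167 CPM in vehicle males 1 to 3, and at 95.5, 102, 14.2 and 24.6 CPM in PTX males. Vehicle male 2 held 4 Itga6 reads and 5244 Itgb4 reads, so the low value concerned 1 chain of the pair. With that library lower than every PTX library, the groups overlapped and the difference of -1.75 ± 1.25 (edgeR adjusted p = 0.68) could not be told from 0. Trim29, a cytoplasmic TRIM-family protein abundant in stratified epithelia, measured 689, 2521 and 1008 CPM in vehicle males and 261, 169, 255 and 585 CPM in PTX males. All PTX libraries were below all vehicle libraries, the lowest of which was vehicle female 2 at 632 CPM. Trim29 fell by 2.15 ± 0.48 on the log2 scale, 4.43-fold (edgeR adjusted p = 0.0247).

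**Figure D2:**
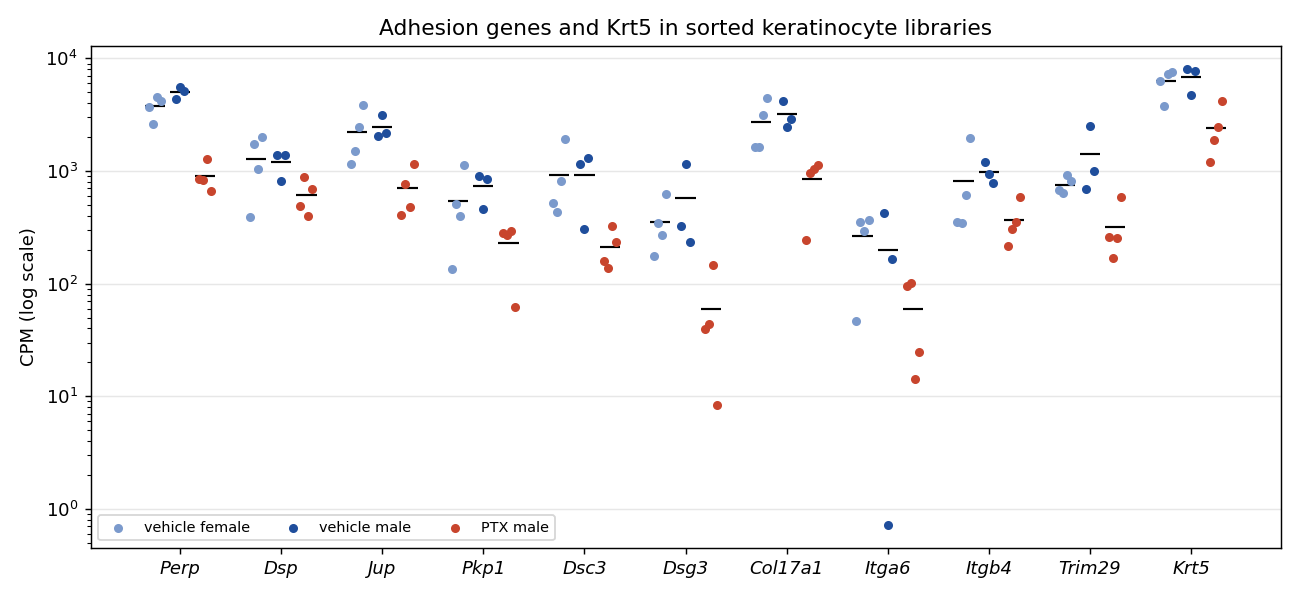
CPM (log axis) of the 10 adhesion genes and Krt5 in each keratinocyte library, with 1 colour for each of the vehicle female, vehicle male and PTX male groups and a black bar at each group's mean. For Perp, Dsg3, Col17a1 and Trim29 all 4 PTX points lie below all 7 vehicle points, and the lone Itga6 point at 0.722 CPM is vehicle male 2.

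In all, 7 of the 10 genes had every PTX male below every vehicle male, a pattern that 4.29% of all genes tested showed. For 4 of the 10 (Perp, Dsg3, Col17a1 and Trim29) every PTX male was also below every vehicle female, against 1.21% of all genes. When the PTX males were set against the mean of vehicle males and females, 6 genes were called lower in edgeR's test, namely Perp, Jup, Dsc3, Dsg3, Col17a1 and Trim29, with 0.512% of all genes called lower (56 genes) and 530 higher. Dsc3 then had a difference of -2.11 ± 0.51 and Dsg3 of -2.91 ± 0.77 on the log2 scale, with edgeR adjusted p-values of 0.0193 and 0.0325. Both comparisons share the same PTX libraries and the vehicle males. Krt5 fell by 1.42 ± 0.28 in that comparison (edgeR adjusted p = 0.00499).

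Of the 4 calls against vehicle males, that of Perp held without any 1 library and the other 3 did not. Over the 10 genes, leaving out 1 library at a time gave 1 to 4 calls: Perp alone without PTX male 2, Perp and Col17a1 without PTX male 1, and Perp with a newly called Dsg3 (-4.29, edgeR adjusted p = 0.0214) without PTX male 3. Jup and Trim29 lost their calls without vehicle male 2 or any of PTX males 1 to 3, and Col17a1 without vehicle male 1 or any of PTX males 2 to 4. Without vehicle male 2, Trim29's difference was -1.44 (edgeR adjusted p = 0.299) and Dsc3 was newly called (-2.56, 0.0193). Trim29 also lost its call with only the PTX and vehicle males in the fit (edgeR adjusted p = 0.0666). The call of Krt5 itself was lost without vehicle males 1 or 3 or any of PTX males 1 to 3, and under DESeq2 (-1.52, adjusted p = 0.0697) and voom quality weights (-1.34, adjusted p = 0.535). Under limma's voom with sample quality weights none of the 10 was called lower, with Perp at -2.30 (adjusted p = 0.895), while DESeq2 called 6 of the 10 lower.

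Vehicle females and males did not differ in any of the 10 genes under edgeR's test. The log2 differences, female minus male, ran from -0.89 for Trim29 (adjusted p = 0.698) to 0.41 for Itga6, none had an unadjusted p under 0.05, and DESeq2 also called 0. Of all genes tested, 0.00914% (1 gene) were called in either direction by edgeR. This comparison had 4 libraries against 3.

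To ask whether the adhesion genes were lower by more than the yardstick, read counts were set against the Krt5 reads of the same library. The 10 genes together gave 139 to 367 reads per 100 Krt5 reads in the 7 vehicle libraries, and 254, 238, 186 and 123 in PTX males 1 to 4. Before this scaling they summed to 8832 to 21280 CPM under vehicle and 3033, 4493, 4581 and 5142 CPM under PTX. The 4 PTX libraries thus had low summed levels, but 3 of them lay inside the vehicle range once Krt5 was the denominator, and PTX male 4 lay just under it.

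With Krt5 reads as the library scale in the same edgeR model, none of the 10 genes was called lower or higher against vehicle males, and none had an unadjusted p under 0.05. Of all genes, 0.00914% (1 gene) were called lower and 4.01% (439 genes) higher, whereas the TMM scale gave 33 lower and 126 higher. DESeq2 on the same scale called 0 of the 10 lower as well. Changing the scale moved the median of all genes from 0.07 to 1.87, so values relative to Krt5 have to be read against that shift. The median of the 10 genes was -0.38, and 6 of the 10 were negative. Against both sexes of vehicle the median was -0.33 (1.85 over all genes), with 0 of the 10 called lower by edgeR, 0 with an unadjusted p under 0.05, 0 by DESeq2, and 0.0274% of all genes called lower.

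Relative to Krt5, Perp was at 54.3, 118 and 67.1 reads per 100 Krt5 reads in vehicle males, 55.5 to 68.8 in vehicle females, and 70.9, 44.4, 51.8 and 15.9 in PTX males 1 to 4. PTX male 1 lay within the vehicle range, PTX males 2 and 3 a little below it, and PTX male 4 well below it. The log2 difference from vehicle males was -0.80 ± 0.48, with an interval of 2 SE from -1.76 to 0.15 and an edgeR adjusted p of 0.381. PTX male 4 was also lowest for Dsg3, with 0.200 reads per 100 Krt5 reads against 2.31 to 6.00 in the other PTX males and 2.80 to 24.4 in the vehicle libraries. Dsg3 gave the largest relative difference, -1.83 ± 1.05, with an interval from -3.93 to 0.27 (edgeR adjusted p = 0.353).

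Dsp lay on the other side of the yardstick. It had 17.2, 17.2 and 18.1 reads per 100 Krt5 reads in vehicle males, 6.16 to 45.5 in vehicle females, and 40.9, 46.8, 16.2 and 16.5 in PTX males. PTX males 1 and 2 were high and PTX males 3 and 4 level with the vehicle males, so the mean difference of 0.78 ± 0.65 (interval -0.51 to 2.08, edgeR adjusted p = 0.561) rested on 2 libraries. Itgb4 was at 17.9, 16.3, 14.2 and 14.1 in PTX males, 14.9, 19.9 and 10.3 in vehicle males and 5.62 to 26.1 in vehicle females, with a difference of 0.06 ± 0.66 from vehicle males. Col17a1, at 20.5, 51.4, 42.2 and 26.8 in PTX males and 37.6 to 52.2 in vehicle males, differed by -0.42 ± 0.49 (edgeR adjusted p = 0.682).

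For the other 5 genes the relative log2 differences were -0.86 ± 0.66 for Trim29, -0.40 ± 0.53 for Jup, -0.36 ± 0.68 for Dsc3, 0.27 ± 0.83 for Pkp1 and 0.55 ± 1.46 for Itga6. Trim29 and Jup changed sign (0.35 and 0.18) without vehicle male 2, which held 53.1 Trim29 and 66.5 Jup reads per 100 Krt5 reads, the highest of all 11 libraries for both. Jup was also read in sorted vehicle male fibroblasts, at 186 to 854 CPM, and fibroblast markers were high in the PTX keratinocyte libraries. What part of the Jup reads came from such cells was not tested, so its relative value is less comparable with the others. Each of the 10 intervals of 2 SE included 0, and the interval of Itga6 ran from -2.38 to 3.48. Neither a fall beyond that of Krt5 nor an equal change was therefore shown for any of the 10 at this number of libraries. No gene of the 10 had every PTX library below every vehicle library per 100 Krt5 reads, against 0.064% of all genes.

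**Figure D3:**
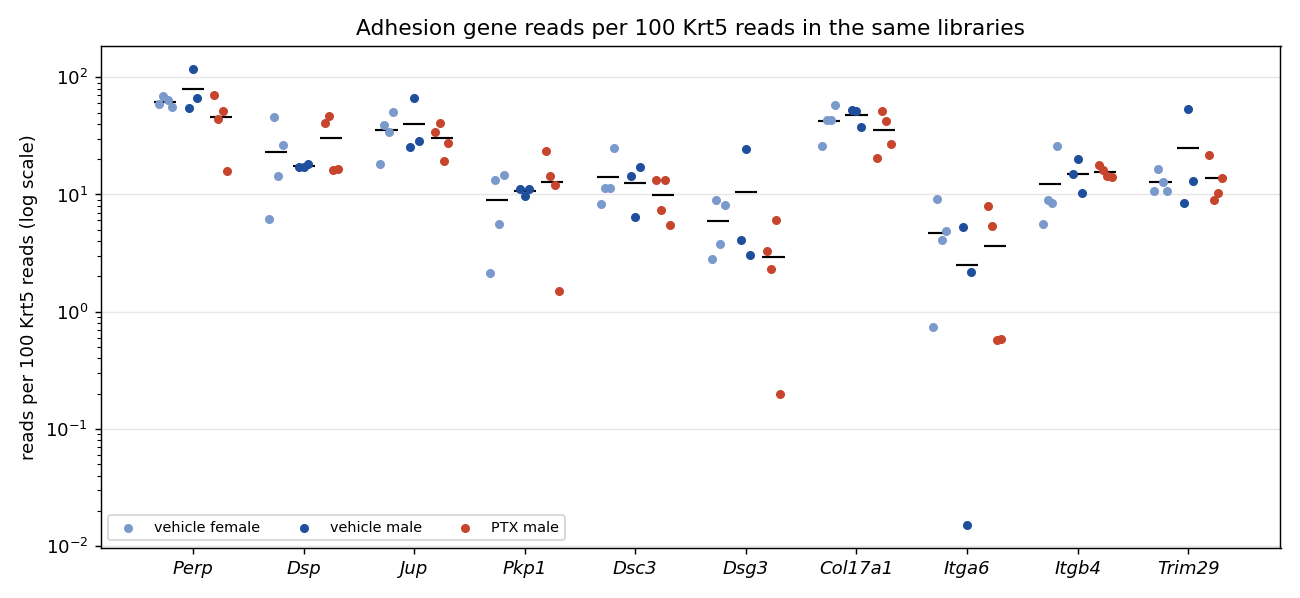
Reads per 100 Krt5 reads (log axis) for the 10 adhesion genes in each keratinocyte library, with a black bar at each group's mean. PTX and vehicle points overlap for every gene, and PTX male 4 is the lowest point for Perp (15.9), Pkp1 (1.49), Dsc3 (5.53) and Dsg3 (0.200).

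Other genes of these structures gave no call against vehicle males. Of 13 further desmosome genes 9 could be tested and 0 passed in edgeR's test, 1 had an unadjusted p under 0.05, and their median log2 difference was -1.38. The lowest p belonged to plakophilin 3 (Pkp3), with -1.38 ± 0.55 (edgeR adjusted p = 0.251), followed by Dsg1b, with -5.62 ± 2.86 (0.383). Dsg1a, Dsg1b and Dsg1c are closely similar copies, so reads without a unique place may be missing from them. All 10 further hemidesmosome and basement membrane genes were tested and 0 passed, 1 having an unadjusted p under 0.05. Their median was -0.80, with laminin β3 (Lamb3) at -2.93 ± 1.39 (edgeR adjusted p = 0.333) and plectin (Plec) at -0.72 ± 0.40 (0.46). Leaving out any 1 library, and DESeq2, also gave 0 calls in the 2 lists.

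Among 11 adherens and tight junction genes 10 were tested, 0 passed against vehicle males in edgeR's test and 3 had an unadjusted p under 0.05. Their median was -1.43. Claudin 1 (Cldn1), a sealing protein of epidermal tight junctions, was called lower against both sexes of vehicle, at -1.98 ± 0.50 (edgeR adjusted p = 0.0261), and the value against males alone was -2.16 ± 0.56 (0.0649). Relative to Krt5, 1 of the 10 junction genes tested was called higher against males, where 4.01% of all genes (439) were called higher. It was α-catenin (Ctnna1), which ties adherens junctions to actin, with a log2 difference of 3.18 ± 0.91 (edgeR adjusted p = 0.0486). Of the hemidesmosome list, 2 of 10 genes were called higher relative to Krt5 against both sexes, as were 12.8% of all genes (1402). They were integrin β1 (Itgb1), by 2.70 ± 0.63 (edgeR adjusted p = 0.0058), and the tetraspanin Cd151, by 2.96 ± 0.89 (0.028). Fibroblast, pan-immune and endothelial markers were higher in the same libraries, and their part in these 3 differences was not tested. The medians of all genes on that scale were 1.87 and 1.85.

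Per kilobase of exon, Perp had the highest level of the 10 genes in vehicle male keratinocytes, 2588 ± 313 CPM per kb (SD, n = 3), against 3115 ± 831 for Krt5. Jup (767 ± 186), Col17a1 (571 ± 164) and Trim29 (514 ± 358) came next and overlapped within their SDs. Dsc3 (174 ± 102), Pkp1 (159 ± 52.0), Itgb4 (154 ± 32.7), Dsp (125 ± 34.6), Dsg3 (82.2 ± 72.8) and Itga6 (45.5 ± 49.4) followed, and each overlapped its neighbours in this order. In PTX males Perp was again highest, at 464 ± 133 CPM per kb (SD, n = 4), and Dsg3 was lowest, at 8.57 ± 8.70.

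Across the sorted populations under vehicle, the 10 genes had their highest mean levels in keratinocytes. Scaled together over the 23 vehicle libraries, all 10 were called higher in keratinocytes than in fibroblasts, as were 10.5% of all 14104 genes tested. All 10 were also called higher than in immune cells, as were 8.61%. The 10 were listed as genes of the epidermis, and those near 0 in fibroblasts passed the filter on low counts through other libraries. These counts of calls thus support nothing beyond the levels given. In fibroblasts Dsg3 had no read in any of 8 vehicle libraries, Dsc3 was at 0 in 7, Dsp in 6 and Trim29 in 4. Perp had a median of 0.109 CPM there, against 3488 CPM in keratinocytes. One fibroblast library alone held 20.1 CPM of Perp, and 12.4 CPM was the highest value of Col17a1.

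Jup was the most widely read of the 10. It measured 252 to 1187 CPM in vehicle fibroblasts, 221 to 693 CPM in vehicle immune cells and 1077 to 3105 CPM in vehicle keratinocytes. The keratinocyte level was higher by only 1.58 ± 0.31 (log2) than in fibroblasts and by 1.92 ± 0.31 than in immune cells, with edgeR adjusted p-values of 0.000331 and 3.64e-05. The ranges of keratinocytes and fibroblasts overlapped at their ends. Itga6 and Itgb4 were also read in fibroblasts, at 0 to 40.1 CPM and 0.310 to 71.4 CPM. The Itga6 range of keratinocytes, 0.521 to 322 CPM, overlapped that of fibroblasts and that of immune cells (0.0601 to 19.1 CPM), through vehicle male 2. The integrin α6 chain pairs with integrin β1 as well as β4.

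**Figure D4:**
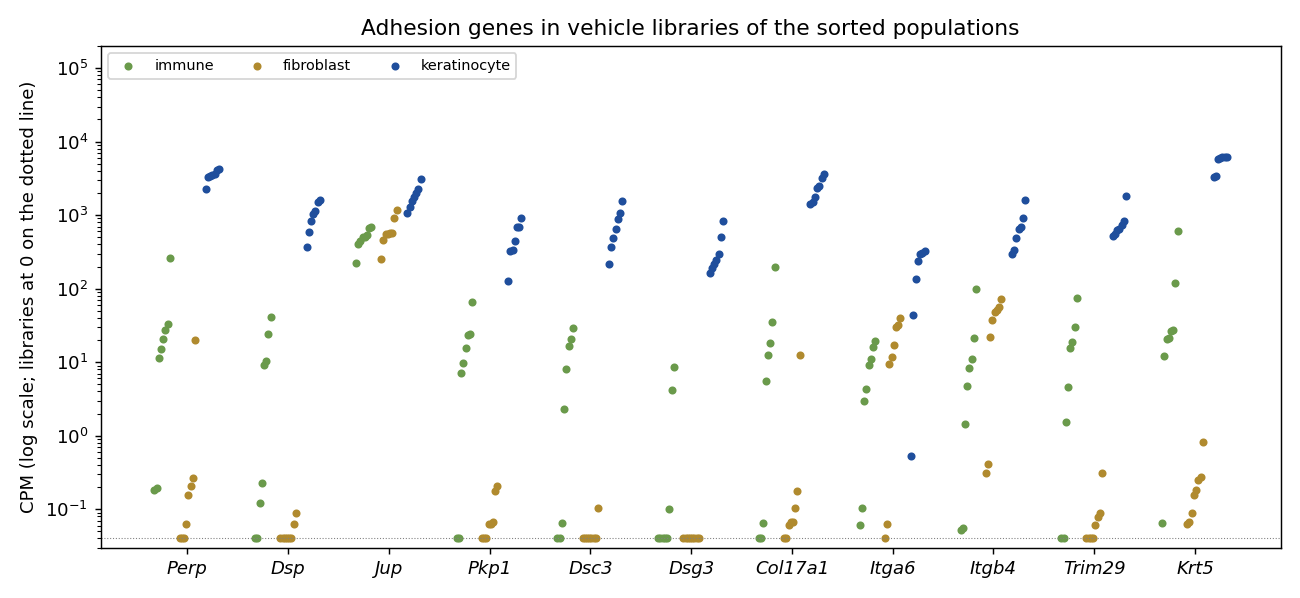
CPM (log axis, with libraries at 0 drawn on the dotted line) of the 10 adhesion genes and Krt5 in each vehicle library of sorted immune cells, fibroblasts and keratinocytes, all 23 scaled together. Jup is the only gene of the 10 at 221 CPM or more in every library of all 3 populations, and Dsg3 lies on the dotted line in all 8 fibroblast libraries.

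In immune cells the reads of most adhesion genes varied widely among vehicle males, for Perp from 213 to 5158. Most of these genes had next to none under PTX, and Perp had 1 to 38. Of the 9 that could be tested, 3 were called lower in PTX than in vehicle males (Pkp1, Col17a1 and Trim29), with 4.56% of all genes called lower. Pkp1 had 465, 167, 413 and 1299 reads in vehicle males 1 to 4, and 0 or 1 read in each PTX male. For Col17a1 there were 0, 594, 319 and 3896 reads in vehicle males and 1 read in all 4 PTX males together. Trim29 had 563, 26, 271 and 1472 reads in vehicle males and also 1 read in all PTX males. The edgeR adjusted p-values were 0.0455, 0.0475 and 0.0487. These 3 genes passed the filter on low counts through the vehicle libraries, so their count supports nothing beyond the reads given. At 0 or 1 read a fitted fold change follows the prior count of the model, so none is given.

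Krt5 reads in the same immune libraries numbered 388, 2049, 479 and 12033 in vehicle males and 2 to 4 in PTX males (edgeR adjusted p = 0.00932). Vehicle male 4 thus had the most reads of Krt5, Pkp1, Col17a1 and Trim29, and all 4 genes were near 0 in PTX libraries. Krt5 also passed the filter on low counts through the vehicle libraries, so its p-value supports nothing beyond these reads. The count of 3 calls became 7 under DESeq2, and 0 with no filter on low counts, with voom quality weights, and without vehicle female 1, any of vehicle males 2 to 4 or any of PTX males 2 to 4. Jup, by contrast, was read 929 to 5915 times in PTX males. It measured 507, 420, 474 and 653 CPM in vehicle males and 75.5, 229, 458 and 444 CPM in PTX males, groups that overlapped, with a log2 difference of -0.77 ± 0.47 (edgeR adjusted p = 0.459).

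In fibroblasts 3 of the 10 genes had enough reads to be tested, and 0 were called between PTX and vehicle males by edgeR, 0 had an unadjusted p under 0.05 and DESeq2 called 0. Of all genes, 0.0184% (2 genes) were called in either direction. Jup was at 186, 453, 718 and 854 CPM in vehicle males and at 449, 1176, 361 and 789 CPM in PTX males, a difference of 0.33 ± 0.43 (edgeR adjusted p = 0.98). Itga6 split the PTX males, with 206 and 205 CPM in PTX males 2 and 3 and 8.41 and 10.9 CPM in PTX males 1 and 4, against 13.6 to 29.6 CPM in vehicle males. Its difference of 2.26 ± 1.59 did not pass (edgeR adjusted p = 0.874). Itgb4, at 17.5, 3.36, 0.160 and 0.0668 CPM in PTX males and 0.229, 17.5, 56.2 and 27.1 CPM in vehicle males, did not follow Itga6, and its difference was -2.26 ± 1.88 (0.944). The other 7 genes stayed under the filter on low counts, with the highest library value at 24.2 CPM (Pkp1, 1 PTX male).

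The genes whose pattern over the 35 libraries was most like the mean of the 10 were Tcfap2b, 1190003J15Rik, Gyltl1b, Calml3 and Tbx1. Likeness was the root mean square distance between profiles of log2(CPM + 1), centred on each gene's mean, which was 0.73, 0.83, 0.87, 0.87 and 0.89 in that order among 9750 candidates. Tcfap2b, a transcription factor of the AP-2 family, measured 204 ± 90.1 CPM (SD, n = 3) in vehicle male and 60.4 ± 10.8 CPM (n = 4) in PTX male keratinocytes. Its log2 difference of -1.87 ± 0.66 did not pass edgeR's test (adjusted p = 0.208). Calml3, a calmodulin-like protein of epithelia, was at 356 ± 170 CPM (n = 3) and 105 ± 33.0 CPM (n = 4), with a difference of -1.84 ± 0.58 (edgeR adjusted p = 0.174). Tbx1, at 130 ± 36.5 and 124 ± 57.8 CPM, differed by -0.15 ± 0.81 (edgeR adjusted p = 0.999). The 35 libraries span 3 sorted populations, so the measure takes in their contrast as well as the treatment. Each of the 10 genes lay farther from their mean than the genes named here, at 1.05 (Dsc3) to 2.78 (Itga6).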

How the data were processed

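Messenger RNA of sorted hind paw cells was sequenced as stranded TruSeq libraries, per the labels' protocols. Reads were aligned with TopHat2 to mouse build mm9 and counted with HTSeq, per the submitters' processing notes; the sources used here name neither tool versions nor the annotation or strand setting, so overlapping or antisense transcripts may share reads. The authors deposited raw read counts by gene symbol, without normalization. Reads that HTSeq placed in no gene, or nowhere uniquely (48.3 to 60.9% of reads in keratinocytes), entered neither library sizes nor tests.

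The members and lists were chosen with earlier results of these data known. Groups were taken from the labels, and no 2 libraries of a group were duplicates (51 pairs compared). Each sorted population was fitted separately with edgeR 4.0.16 in R 4.3.3 (filterByExpr, TMM, robust quasi-likelihood F-test, 1 coefficient per group), with Benjamini-Hochberg adjustment over all genes tested and a threshold of 0.05; vehicle libraries of all populations were also fitted together. A second fit used the log Krt5 count as offset. The script was tested on simulated data. Alternatives were RLE scaling, no filter, DESeq2 1.42.0, limma 3.58.1 voom with quality weights, a replicate block, other yardsticks and leaving out each library. Named genes were all members and Krt5, and of the lists up to 3 that passed or 2 with the lowest p. CPM per kb used exon lengths of the GENCODE annotation of GRCm38. Apart from the RefSeq start regions on GRCm38.p6, no coordinates are given, since the counts are on mm9. SE is the log2 difference divided by the square root of F.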

Additional observations from a re-analysis of the deposited data

Results flagged for a closer look

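Within groups of 4 libraries, 60 sets of values were searched for a highest or lowest library far from the other 3, and 5 were found. The sets were the 10 genes and Krt5 in keratinocytes, these 10 per 100 Krt5 reads, and Jup, Itga6 and Itgb4 in other populations. Chance would give about 1 in 20 if the sets were independent and the values normal. Some sets share genes and libraries, so 5 of 60 is not compared with chance. Vehicle female 4 of the keratinocytes had the highest Itgb4 level, 1981 CPM against 342 to 614 CPM in the other 3 vehicle females, and also the highest Itgb4 count relative to Krt5, 26.1 against 5.62 to 8.99 reads per 100 Krt5 reads. PTX male 4 of the keratinocytes had the lowest Pkp1 level, 62.6 CPM against 272 to 294 CPM in the other 3 PTX males. In immune cells, PTX male 4 held 107.6 CPM of Itgb4 (1263 reads) where the other 3 PTX males held 0 to 2 reads. Fibroblast vehicle female 3 had 0.337 CPM of Itgb4 against 40.2 to 47.1 CPM in the other 3 vehicle females.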

How the results depend on the processing

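The 4 member calls in keratinocytes against vehicle males became 0 under voom quality weights, and the 6 against both sexes became 2; in the other alternatives that keep all libraries the counts were 3 to 6 and 5 to 6. Leaving out 1 library gave 1 to 4 and 3 to 6. The 3 members called in immune cells became 0 with no filter, 7 under DESeq2, 0 with a replicate block, 0 under voom quality weights, and 0 to 3 without 1 library. Relative to Krt5 no alternative called a member lower, and all 10 stayed called higher in vehicle keratinocytes than in either other population. Replicate numbers are shared by name only (same-number correlations of -0.026 to 0.019 over 10 pairs); the replicate block gave 6 member calls against vehicle males and 5 against both sexes.

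Counts over all genes moved more, and the cause was not tested. Genes called lower against vehicle males (33) numbered 223 under DESeq2, 52 under voom quality weights and 18 to 32 without 1 library; against both sexes (56) they were 307 under DESeq2, 33 with the replicate block and 31 to 51 without 1 library. Relative to Krt5, the 1 gene lower against males became 0 with no filter, with the replicate block and with Krt14 or the sum of 4 basal markers as yardstick, 66 under DESeq2 and 0 to 2 without 1 library; the 3 against both sexes became 5 with no filter and 103 under DESeq2. Between vehicle sexes, 1 gene became 3 with no filter, 553 under DESeq2, 3 under voom quality weights and 1 to 3 without 1 library. In immune cells 553 genes lower became 334 with no filter, 1408 under DESeq2, 108 with the replicate block, 1 under voom quality weights and 203 to 775 without 1 library. In fibroblasts 2 genes became 1 with RLE scaling or with only the 2 groups compared, 4 with no filter, 403 under DESeq2, 0 under voom quality weights and 0 to 4 without 1 library.

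Values relative to Krt5 changed sign in uncalled genes: with Krt14 as yardstick Jup was 0.24, Dsc3 0.031 and Col17a1 0.10; with the 4 basal markers Jup was 0.049; with the replicate block Itgb4 was -0.073. Without 1 library at a time the values ran from -0.64 to 0.18 for Jup, -0.20 to 0.64 for Pkp1, -0.18 to 1.74 for Itga6, -0.16 to 0.31 for Itgb4 and -1.27 to 0.35 for Trim29, with the sign changed without vehicle male 2 (Jup, Itga6, Trim29), vehicle male 3 (Itgb4) or PTX male 1 (Pkp1, Itga6, Itgb4). Jup in fibroblasts was -0.033 under voom quality weights and -0.018 to 0.59 without 1 library, the lowest without PTX male 2. Few reads stood behind Itga6 in vehicle male 2 (4) and Dsg3 in PTX male 4 (59), while vehicle female 2, the shallowest keratinocyte library, held 450 and 438.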
